A study of Mus musculus with 4 samples.

Results

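The TNF ligand and receptor superfamily was followed in mouse kidney RNA. Its members were taken by name: a gene belonged if its symbol in the array annotation began with Tnfsf or Tnfrsf and a digit, or was Tnf, Lta, Ltb, Fas, Fasl, Cd40 or Ltbr. The rule found 34 genes on 56 probe sets, of 18193 genes on 34945 probe sets with a single symbol. A probe set is a group of short probes on the array that reads 1 transcript or group of transcripts. Of the 34 genes, 11 encode ligands and 22 receptors, and Tnfsf13os is a transcript from the strand opposite Tnfsf13. Another 3 probe sets carried several symbols with a member among them and were not used, so Tnfsf12, which encodes TWEAK, the ligand of the receptor Tnfrsf12a, was not analysed here.

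The kidneys came from male C57Bl/6 mice kept free of specific pathogens, and there were 4 groups. Mice labelled Tet2KO had 60 min of renal ischemia followed by 24 h of reperfusion (KO-labelled IR) or sham surgery (KO-labelled sham), and wild-type mice had the same injury (wild-type IR) or sham surgery (wild-type sham). Each group was measured on 1 array that held RNA pooled from 3 mice, so the spread between mice could not be measured, no test between groups was possible, and the precision of every value is limited by the number of arrays. The labels give neither the age of the mice nor how the Tet2 allele was made.

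Members of this superfamily are mostly membrane proteins that act at cell contacts or after being cut from the surface. Ligands of the family form trimers that cluster their receptors. Receptors with an intracellular death domain, such as TNFR1 and Fas, can recruit FADD and caspase-8 and start apoptosis, or signal survival and inflammation through NF-kappaB. Receptors without it bind TRAF adaptor proteins directly and signal mainly through NF-kappaB and MAP kinases. Decoy receptors bind a ligand without passing on a death signal. In the injured kidney the family is known from work on TNF, Fas ligand and TWEAK, which act on tubule cells.

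Across the arrays, kidney transcripts were present as labelled: of 5 kidney identity genes, 4 were read and all 4 were far over the floor in every array, among them Umod with log2 signals of 14.02 in KO-labelled IR, 14.43 in KO-labelled sham, 14.52 in wild-type IR and 14.52 in wild-type sham. Tet2, an enzyme gene that oxidises methylated cytosine in DNA, did not mark off the sham array of the KO label. Its log2 signal on one probe set was 8.74 in KO-labelled IR, 9.87 in KO-labelled sham, 9.16 in wild-type IR and 9.96 in wild-type sham. On the other it was 8.60, 10.25, 9.30 and 9.84 in the same order. Whether these probe sets lie in the deleted part was not known, and the groups are called KO-labelled for this reason. The floor, below which signals were treated as not measured, was a log2 signal of 5.72, the 40th percentile of all signals. A gene was called higher or lower where it differed by 2-fold or more.

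Of the 34 members, 17 were at or over the floor in all 4 arrays, 2 in some of them and 15 in none. Among the ligands, 7 of 11 were below the floor throughout: Fasl, Lta, Ltb, Tnfsf4, Tnfsf9, Tnfsf11 and Tnfsf14. Among receptors with a death domain this was so for Tnfrsf10b alone of 5, among those without one for Tnfrsf13b, Tnfrsf13c, Tnfrsf17, Tnfrsf18 and Tnfrsf19 of 14, and among decoy receptors for Tnfrsf11b and Tnfrsf23 of 3. Several of these are lymphocyte genes, such as Fasl of killer cells and Tnfrsf13c, the BAFF receptor of B cells. Some lymphocyte markers were over the floor all the same. Of 13 T cell and NK cell markers read, 2 were at or over the floor in KO-labelled IR, 6 in KO-labelled sham, 3 in wild-type IR and 7 in wild-type sham. Of 8 B cell and plasma cell markers read, the numbers were 4 in KO-labelled IR and 5 in each of the other arrays. The T cell gene Cd3e had log2 signals of 7.35 in KO-labelled IR, 7.63 in KO-labelled sham, 7.40 in wild-type IR and 7.52 in wild-type sham. Other markers of this list were lower: Cd3d lay near the floor, between 5.64 and 6.07. Cd3g, Cd8b1, Il7r, Foxp3, Gzmb and Ncr1 were below the floor in all 4 arrays. Signal below the floor does not show that a gene was silent, and in whole-kidney RNA fewer cells of a type and less RNA per cell cannot be told apart.

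**Figure D1:**
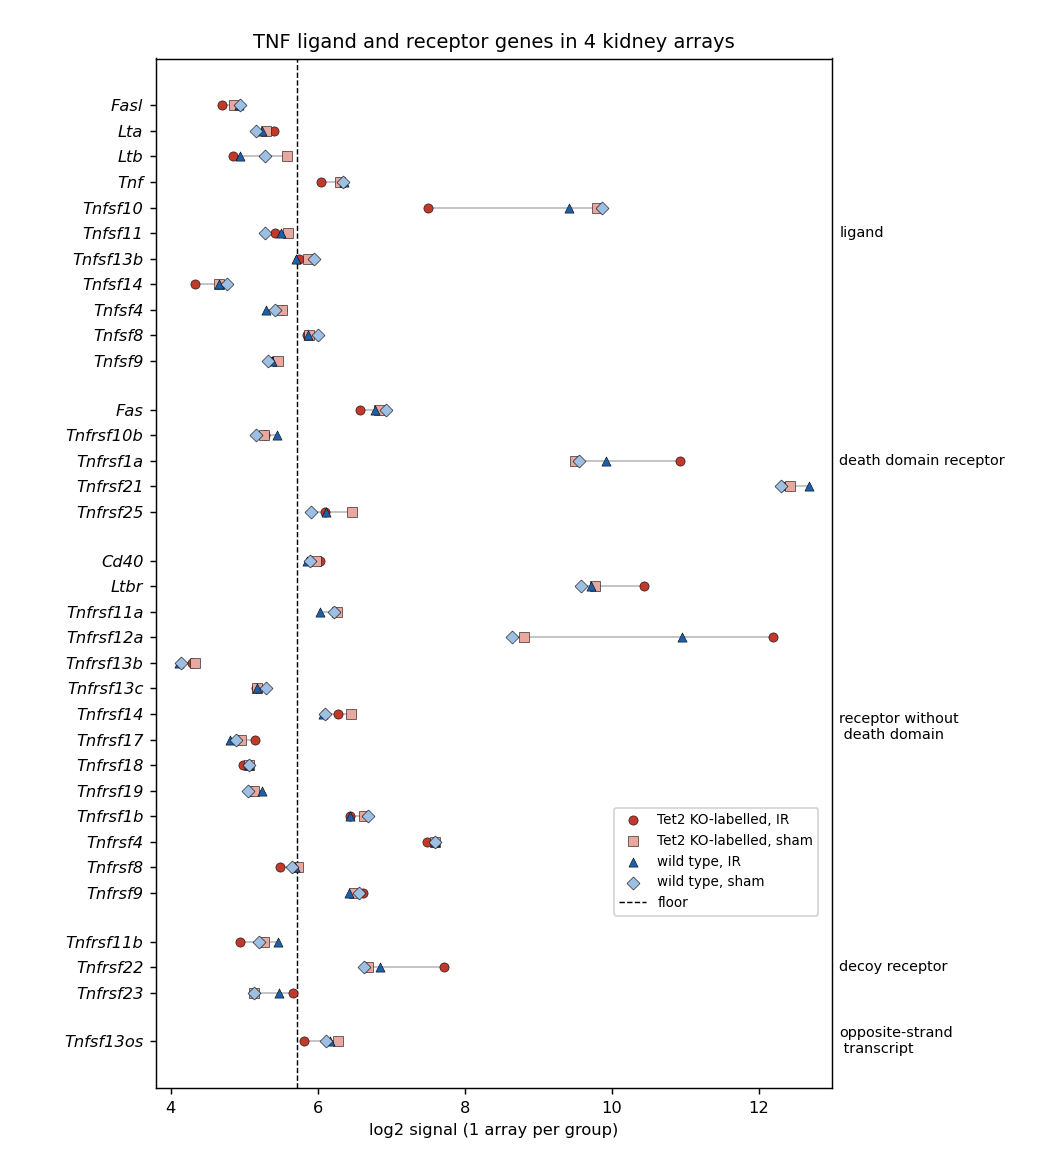
Log2 signal (horizontal axis) of the 34 member genes in the 4 arrays, grouped by role and listed by name within a role. Each point is 1 array, the grey line joins the lowest and the highest array of a gene, and the dashed line is the floor of 5.72. Tnfsf10, Tnfrsf1a and Tnfrsf22 have the KO-labelled IR array apart from the others, while Tnfrsf12a has both injured arrays above both sham arrays. Signals of different genes are read by different probes and cannot be ranked against each other.

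Of the 19 members measured in 1 or more comparisons, 4 differed by 2-fold or more in any of 5 comparisons, which were injury over sham in each genotype, KO-labelled over wild type in each treatment, and the difference between the responses to injury. The share of all genes past 2-fold in any of the 5 was not computed, and the shares for each comparison are given below. The 4 members were the receptors Tnfrsf12a, Tnfrsf1a and Tnfrsf22 and the ligand Tnfsf10. The bases just before the start site of 3 of them are shown here, since Tet2 acts on methylated cytosines, which lie mostly in CpG dinucleotides. Each run covers the 250 bases upstream of the RefSeq start site on mouse build GRCm38.p6, read 5′ to 3′ on the strand of the gene, with CpG dinucleotides in capitals. The Tnfrsf12a run is chr17:23677450-23677699 on the minus strand, that of Tnfrsf1a chr6:125349473-125349722 on the plus strand, and that of Tnfsf10 chr3:27316827-27317076 on the plus strand.
Tnfrsf12a: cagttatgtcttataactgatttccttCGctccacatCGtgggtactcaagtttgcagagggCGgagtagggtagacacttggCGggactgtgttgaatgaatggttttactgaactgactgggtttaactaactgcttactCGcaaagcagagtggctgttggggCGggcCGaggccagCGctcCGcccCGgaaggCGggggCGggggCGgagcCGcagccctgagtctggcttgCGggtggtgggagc
Tnfrsf1a: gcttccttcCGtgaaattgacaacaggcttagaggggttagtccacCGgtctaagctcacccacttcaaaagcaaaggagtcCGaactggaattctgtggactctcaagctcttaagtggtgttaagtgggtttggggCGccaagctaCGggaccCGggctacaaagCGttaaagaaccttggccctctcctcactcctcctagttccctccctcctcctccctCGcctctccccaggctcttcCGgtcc
Tnfsf10: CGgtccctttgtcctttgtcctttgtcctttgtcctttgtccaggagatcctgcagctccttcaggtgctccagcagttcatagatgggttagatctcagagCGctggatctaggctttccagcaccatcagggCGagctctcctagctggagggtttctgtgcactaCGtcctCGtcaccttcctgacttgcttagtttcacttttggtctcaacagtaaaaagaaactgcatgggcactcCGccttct

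The Tnfrsf12a run holds 15 CpG dinucleotides, that of Tnfrsf1a 9 and that of Tnfsf10 6. Over all 32851 promoters of the RefSeq table the median was 6, with quartiles at 2 and 16, so none of the 3 lay outside the usual range. In Tnfrsf12a, 10 of the 15 lie in the 100 bases next to the start site. DNA methylation was not measured in these samples. The NF-kappaB consensus, searched on both strands, had no match in these 3 windows, and neither had the AP-1 letters TGANTCA. Over all promoters 7.25% held an NF-kappaB match and 6.75% an AP-1 match. Of 31 promoters of 27 member genes, 4 held an NF-kappaB match (12.9%) and 5 an AP-1 match (16.1%). The NF-kappaB matches lay before Ltb, Tnfrsf8, Tnfrsf9 and Tnfrsf25, none of them a gene that differed by 2-fold here. This does not bear on the motif, since Ltb was below the floor in all 4 arrays and Tnfrsf8 reached it in 1. Tnfrsf22, which did differ by 2-fold, had no promoter to search.

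After injury, 3 of the 19 members measured in the KO-labelled pair were higher and 1 was lower, where 6.06% of all 13600 measured genes were higher and 6.89% lower. In the wild-type pair 1 of 18 measured members was higher and 0 were lower, where 2.06% of 13531 genes were higher and 2.18% lower. These counts are small, and the typical member differed little. The members measured had a median log2 ratio of -0.10 in the KO-labelled pair and -0.02 in the wild-type pair, against -0.02 and 0.02 over all measured genes. As a measure of technical error, log2 ratios read by different probe sets of 1 gene had an SD of 0.39 in the KO-labelled pair and 0.24 in the wild-type pair, which does not cover differences between mice. Past that SD were 6 of 19 members in the KO-labelled pair, against 43.5% of all measured genes. In the wild-type pair 5 of 18 members were past it, against 41.7% of all measured genes. Of the 18 members measured in both pairs, 10 stayed within the SD in both, and the share of all genes that did so was not computed.

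**Figure D2:**
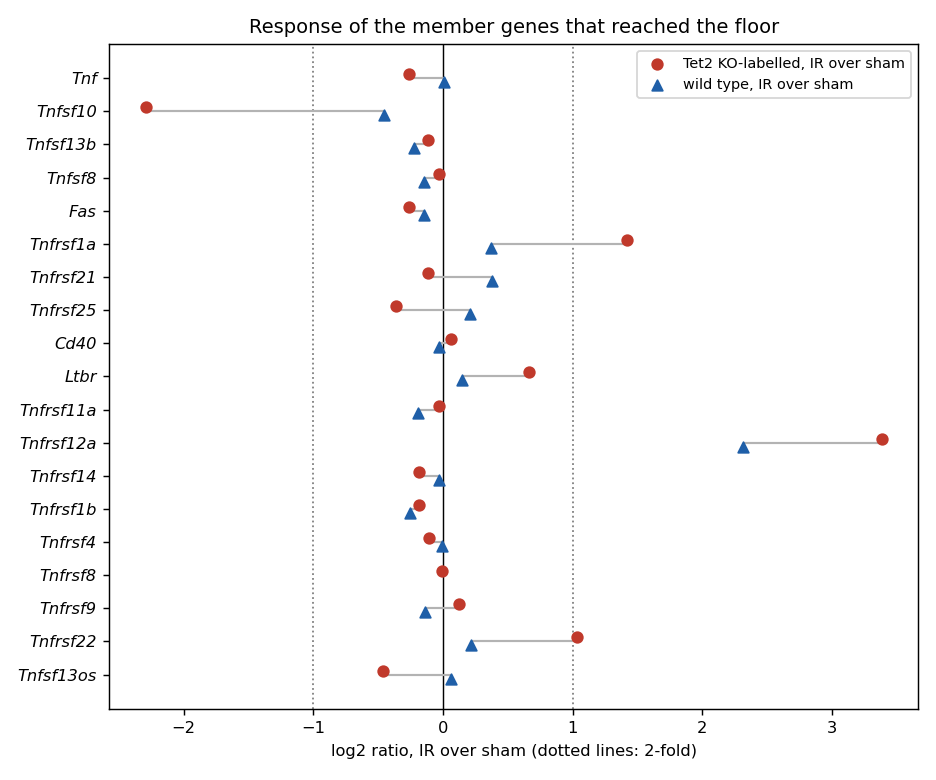
Log2 ratio of injury over sham (horizontal axis) for the 19 members that reached the floor, with the KO-labelled pair as circles and the wild-type pair as triangles; dotted lines mark 2-fold. Most points lie near 0, Tnfrsf12a lies to the right in both genotypes, and Tnfsf10 lies far to the left in the KO-labelled pair alone. Tnfrsf8 was measured in the KO-labelled pair only.

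Among receptors without a death domain, Tnfrsf12a, which encodes the TWEAK receptor Fn14, was the member with the largest response. Its log2 signal was 12.19 in KO-labelled IR, 8.81 in KO-labelled sham, 10.95 in wild-type IR and 8.64 in wild-type sham. Both injured arrays were thus above both sham arrays, and the sham arrays lay close together. Injury over sham was 10.4-fold in the KO-labelled pair and 4.97-fold in the wild-type pair. Among all measured genes it had the 38th highest ratio of 13600 in the KO-labelled pair and the 22nd highest of 13531 in the wild-type pair. Between the injured arrays KO-labelled was 2.36-fold higher than wild type, and between the sham arrays 1.12-fold. The response in the KO-labelled pair exceeded that in the wild-type pair by 1.07 on the log2 scale, where the SD between probe sets was 0.37. Its other probe set, of the type that can bind further transcripts, gave log2 ratios of 3.41 in the KO-labelled pair and 2.41 in the wild-type pair.

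The Tnfrsf12a values stood beside those of injured tubule markers. All 9 tubular injury markers read were higher in the KO-labelled pair and 5 of 9 in the wild-type pair. Their summed linear signal was 53377 in KO-labelled IR, 2313 in KO-labelled sham, 28409 in wild-type IR and 3925 in wild-type sham. The order of the injured arrays is the same as for Tnfrsf12a, while the sham arrays stand in the opposite order. The part of injury severity in the Tnfrsf12a difference between genotypes was not tested.

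Ltbr, the receptor for lymphotoxin and LIGHT, had log2 signals of 10.44 in KO-labelled IR, 9.77 in KO-labelled sham, 9.73 in wild-type IR and 9.58 in wild-type sham. The KO-labelled IR array was the highest, at 1.59-fold over its sham array, which misses the 2-fold mark, and the ratio in wild type was 1.11-fold. Tnfrsf12a aside, 7 receptors of this class had signals over the floor in all 4 arrays: Ltbr, Cd40, Tnfrsf1b, Tnfrsf4, Tnfrsf9, Tnfrsf11a and Tnfrsf14. On the probe set used for each gene, their log2 ratios of injury over sham lay between -0.25 and 0.67. The other probe set of Tnfrsf1b lay outside this range in the KO-labelled pair, at 0.90. Among these receptors are Cd40, the costimulatory receptor of B cells and macrophages, and Tnfrsf11a, the receptor RANK of osteoclast precursors. Tnfrsf4, the T cell receptor OX40, barely varied, with log2 signals of 7.49 in KO-labelled IR, 7.60 in KO-labelled sham, 7.60 in wild-type IR and 7.60 in wild-type sham. Tnfrsf8 reached the floor in KO-labelled sham alone, with a log2 signal of 5.73.

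Tnfrsf1b, which encodes TNFR2, the TNF receptor without a death domain, gave different answers on its probe sets. The probe set used for the gene had log2 signals of 6.45 in KO-labelled IR, 6.63 in KO-labelled sham, 6.43 in wild-type IR and 6.69 in wild-type sham, so that both injured arrays were slightly the lower. The other had 6.93 in KO-labelled IR, 6.03 in KO-labelled sham, 6.54 in wild-type IR and 6.07 in wild-type sham, with both injured arrays the higher. On the log2 scale the responses were -0.18 and 0.90 in the KO-labelled pair and -0.25 and 0.47 in the wild-type pair. No direction is given for this gene.

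**Figure D3:**
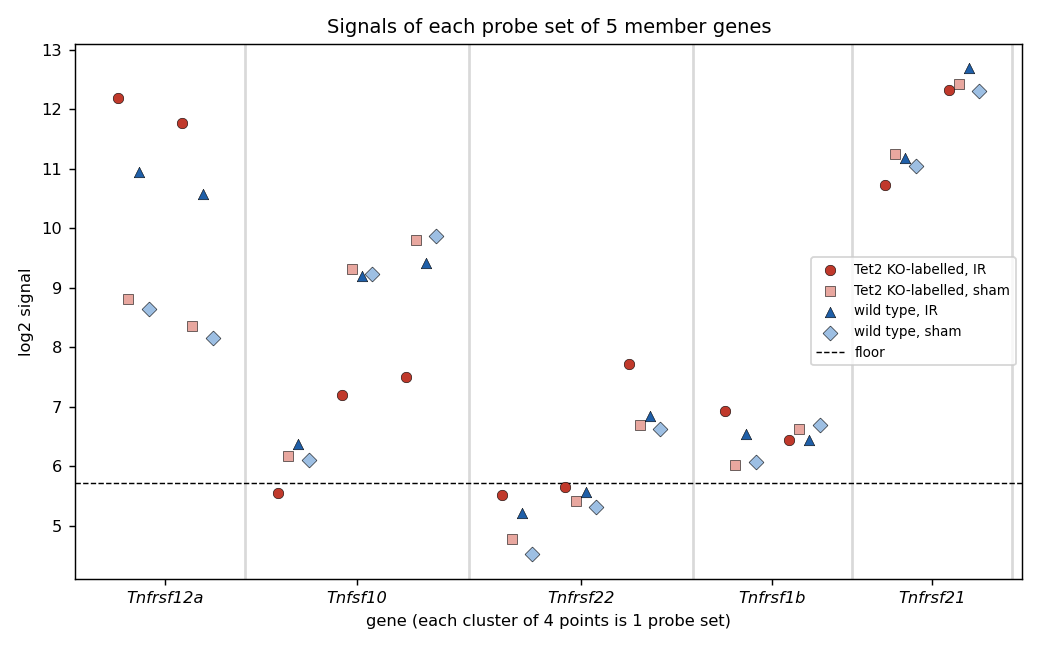
Log2 signal (vertical axis) on every probe set of 5 member genes, with 4 points for each probe set, 1 per array, and the floor as a dashed line. The probe sets of Tnfrsf12a and those of Tnfsf10 repeat the order of the KO-labelled IR array relative to the rest, while those of Tnfrsf1b differ in direction and those of Tnfrsf22 in size.

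Among receptors with a death domain, Tnfrsf1a, which encodes TNFR1, the main receptor for soluble TNF, was higher in the KO-labelled IR array. Its log2 signal was 10.93 in KO-labelled IR, 9.51 in KO-labelled sham, 9.93 in wild-type IR and 9.55 in wild-type sham. The sham arrays lay together, wild-type IR was a little above them, and KO-labelled IR stood apart. Injury over sham was 2.68-fold in the KO-labelled pair and 1.29-fold in the wild-type pair, a difference of 1.05 on the log2 scale. Between the injured arrays KO-labelled was higher by 1.002 on the log2 scale, which lies at the 2-fold mark itself and was 0.97 with arrays centred on their medians. Tnfrsf1a has 1 probe set, so its ratio has no second reading. In the RefSeq gene order its locus is separated from Ltbr by 1 protein-coding gene, Scnn1a, and both neighbours had their highest signal in KO-labelled IR.

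Fas, the death receptor for Fas ligand, had log2 signals of 6.58 in KO-labelled IR, 6.84 in KO-labelled sham, 6.78 in wild-type IR and 6.93 in wild-type sham. Each injured array was slightly below its sham array, with log2 ratios of -0.26 in the KO-labelled pair and -0.15 in the wild-type pair, within the SD between probe sets. Its ligand Fasl had 4.70 in KO-labelled IR, 4.86 in KO-labelled sham, 4.92 in wild-type IR and 4.94 in wild-type sham, all below the floor. Tnfrsf21, the death receptor DR6, had 12.32 in KO-labelled IR, 12.43 in KO-labelled sham, 12.69 in wild-type IR and 12.31 in wild-type sham, so wild-type IR was the highest. Its other probe set gave another order, with 10.72 in KO-labelled IR, 11.24 in KO-labelled sham, 11.19 in wild-type IR and 11.05 in wild-type sham. Tnfrsf25, the receptor DR3, lay near the floor, between 5.90 and 6.46.

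The decoy receptor Tnfrsf22, which in mice binds TRAIL and lacks a death domain, had log2 signals of 7.72 in KO-labelled IR, 6.69 in KO-labelled sham, 6.85 in wild-type IR and 6.63 in wild-type sham. KO-labelled IR stood above the other 3 arrays. Injury over sham was 2.04-fold in the KO-labelled pair and 1.16-fold in the wild-type pair, and KO-labelled IR was 1.83-fold over wild-type IR. The value in the KO-labelled pair passed 2-fold narrowly. With a pseudocount of 32 added to the linear signal in place of the floor its log2 ratio was 0.85, with quantile normalization it was 0.99, and 2 other probe sets of the gene were below the floor in every array.

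Among ligands, Tnfsf10, which encodes TRAIL, a death ligand that is also an interferon-induced gene, was the only one past 2-fold, and it was lower. Its log2 signal was 7.51 in KO-labelled IR, 9.80 in KO-labelled sham, 9.42 in wild-type IR and 9.88 in wild-type sham. KO-labelled IR lay far below the other 3 arrays, which spanned less than the gap to it. Injury over sham was 4.89-fold lower in the KO-labelled pair and 1.37-fold lower in the wild-type pair, and between the injured arrays KO-labelled was 3.77-fold lower. Among all measured genes its ratio was the 156th lowest of 13600 in the KO-labelled pair and the 106th lowest of 13492 between the injured arrays. The responses differed by -1.83 on the log2 scale. The second probe set gave -2.12 in the KO-labelled pair and -0.05 in the wild-type pair. The third was below the floor in KO-labelled IR at 5.55, against 6.17 in KO-labelled sham, 6.37 in wild-type IR and 6.10 in wild-type sham. All 3 probe sets of Tnfsf10 thus had their lowest signal in KO-labelled IR. Of its receptors, the death receptor Tnfrsf10b was below the floor in all arrays.

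The low Tnfsf10 signal stood beside lower signals of 3 of the 4 kidney identity genes in the same array. The summed linear signal of the 4 kidney identity genes was 25620 in KO-labelled IR, 39760 in KO-labelled sham, 35659 in wild-type IR and 41927 in wild-type sham. Umod makes up most of this sum. In the KO-labelled pair the phosphate transporter Slc34a1 was 2.32-fold lower, the salt transporter Slc12a3 2.41-fold lower and Umod 1.32-fold lower, while the water channel Aqp2 was 1.14-fold higher. In the wild-type pair Slc34a1 was 1.81-fold, Slc12a3 1.28-fold and Aqp2 1.22-fold lower, and Umod had a log2 ratio of 0.006. Between the injured arrays KO-labelled was lower by 1.18-fold for Slc34a1, 2.02-fold for Slc12a3, 1.41-fold for Umod and 1.23-fold for Aqp2. Endothelial markers, of which 11 of 12 reached the floor and Vwf did not, followed another order. Their sums were 3412 in KO-labelled IR, 4116 in KO-labelled sham, 1679 in wild-type IR and 4112 in wild-type sham. In the KO-labelled pair they went both ways, with Cdh5 1.32-fold and Kdr 1.24-fold higher and Plvap 2.58-fold and Tek 1.86-fold lower. Their median log2 ratio was -0.14 in the KO-labelled pair and -0.86 in the wild-type pair. The part of tubule or vessel RNA in the Tnfsf10 signal was not tested.

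Tnf itself, the ligand that gives the family its name, was close to the floor and varied little. Its log2 signal was 6.05 in KO-labelled IR, 6.31 in KO-labelled sham, 6.36 in wild-type IR and 6.35 in wild-type sham. KO-labelled IR was the lowest, with a log2 ratio to its sham array of -0.26, and that of wild-type IR to its own was 0.01. Its neighbours in the genome, Ltb and Lta, which stand on either side of it with no protein-coding gene between, were below the floor. Of the other ligands measured, Tnfsf8 lay between 5.86 and 6.01 in the 4 arrays, and Tnfsf13b, the B cell survival factor BAFF, lay between 5.70 and 5.94. The opposite-strand transcript Tnfsf13os had 5.81 in KO-labelled IR, 6.28 in KO-labelled sham, 6.17 in wild-type IR and 6.11 in wild-type sham.

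Between the sham arrays, no member of 19 measured differed by 2-fold, where 0.186% of 13474 genes were higher and 0.846% lower. The log2 ratios of KO-labelled sham over wild-type sham ran from -0.13 for Tnfsf8 to 0.56 for Tnfrsf25, which was 0.16 with the floor at the 50th percentile. Between the injured arrays 2 of 18 members were higher, Tnfrsf12a and Tnfrsf1a, and 1 was lower, Tnfsf10, where 3.68% of 13492 genes were higher and 3.99% lower. The difference of responses passed 2-fold for the same 3 genes, in the same directions, where 4.75% of 13808 genes were higher and 4.77% lower. These comparisons share the KO-labelled IR array and are not independent readings.

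Markers of cells other than tubules differed between the arrays. The neutrophil list had 9 of 11 markers read reaching the floor, with Mpo and Cxcr2 below it throughout. It summed to 2637 in KO-labelled IR, 731 in KO-labelled sham, 872 in wild-type IR and 702 in wild-type sham. S100a8 and S100a9, calcium-binding proteins of neutrophils, made up that difference. Without them the sums of the 9 other markers read were 623 in KO-labelled IR, 629 in KO-labelled sham, 597 in wild-type IR and 578 in wild-type sham. The macrophage and dendritic cell list, with 12 of 13 markers reaching the floor and Itgam below it, summed to 3646 in KO-labelled IR, 4377 in KO-labelled sham, 2571 in wild-type IR and 4397 in wild-type sham. Its markers went both ways, with 2 higher and 3 lower in the KO-labelled pair and 2 higher and 4 lower in the wild-type pair. Cd14, a receptor for bacterial lipopolysaccharide, was 20.5-fold higher in the KO-labelled pair and 2.83-fold in the wild-type pair, while Csf1r, the receptor for the macrophage growth factor CSF1, was 4.82-fold and 2.57-fold lower. The urothelium list, with all 8 markers reaching the floor, summed to 1720 in KO-labelled IR, 724 in KO-labelled sham, 2838 in wild-type IR and 2023 in wild-type sham. Its markers went both ways in the wild-type pair, with 1 higher, Sprr1a at 4.31-fold, and 3 lower. Those were Upk3a at 2.05-fold, Upk3b at 2.76-fold and Psca at 2.66-fold. In the KO-labelled pair 2 were higher, Upk1b at 2.29-fold and Sprr1a at 12.3-fold or more, and 0 were lower. The B cell and plasma cell list had 6 of 8 markers read reaching the floor, with Cd79a and Cd79b below it. It summed to 1141 in KO-labelled IR, 853 in KO-labelled sham, 820 in wild-type IR and 893 in wild-type sham. Sdc1 was its only measured marker with more signal in KO-labelled IR than in KO-labelled sham, at 4.99-fold. Between the same arrays Jchain was lower by at least 4.47-fold, Mzb1 by 1.61-fold, Pax5 by 1.29-fold and Cd22 by 1.13-fold. The adipose list summed to 10177 in KO-labelled IR, 1628 in KO-labelled sham, 896 in wild-type IR and 7349 in wild-type sham, with 7 of 8 markers read reaching the floor and Lep below it. Adipose signal was thus high in 1 injured and 1 sham array. The part of these other cell types in the members' values was not tested. With the sham array of the other genotype as control, the counts of members past 2-fold were again 4 for KO-labelled IR and 1 for wild-type IR.

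**Figure D4:**
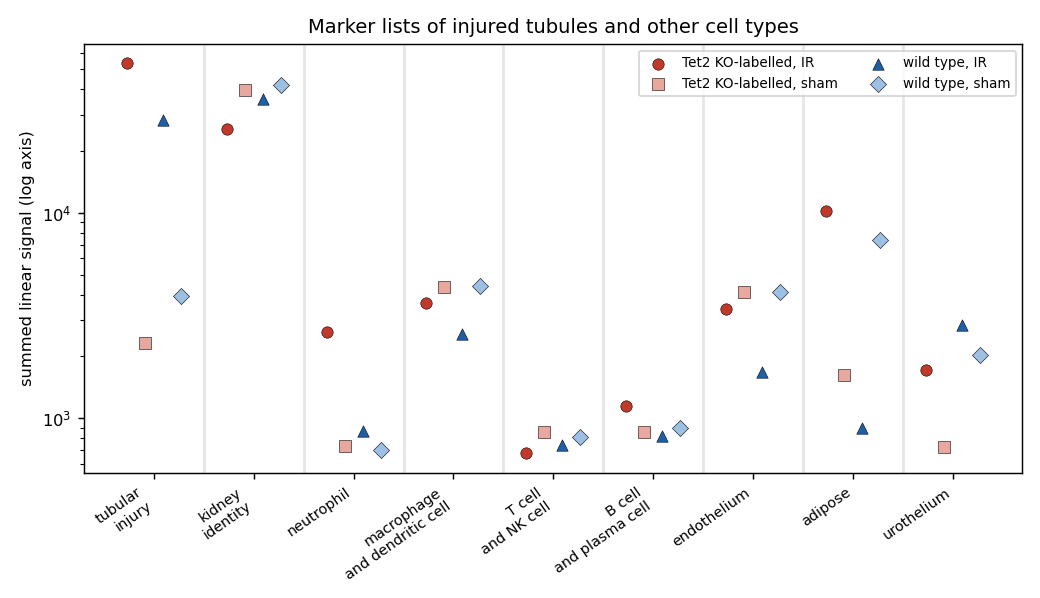
Summed linear signal (vertical axis, log scale) of the marker lists for injured tubules, kidney identity and other cell types, 1 point per array. The tubular injury sum is highest in the KO-labelled IR array and the adipose sum is high in KO-labelled IR and wild-type sham.

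Genes that act downstream of the receptors are given by list, beside the shares of all genes above, and the lists were not tested against each other. None of 10 measured adaptor and TRAF genes passed 2-fold in the KO-labelled pair and none of 9 in the wild-type pair, with medians of 0.18 and 0.04 on the log2 scale. Traf2, which couples TNFR1 and TNFR2 to NF-kappaB, had log2 ratios of 0.51 in the KO-labelled pair and 0.66 in the wild-type pair. Fadd, the adaptor of death receptors, had -0.16 and 0.40. Of 13 death effectors and their brakes, 2 were higher in the KO-labelled pair and 1 in the wild-type pair, with 0 lower in either. Mlkl, the membrane-breaking effector of necroptosis, was at least 17.3-fold higher in the KO-labelled pair and at least 4.68-fold in the wild-type pair. Birc3, the ubiquitin ligase cIAP2 that keeps TNFR1 signalling towards survival, was 2.13-fold and 1.66-fold higher, the second short of the mark. Casp8, the caspase that death receptors activate, was 1.65-fold and 1.85-fold higher, and Cflar, its inhibitor, differed by -0.10 to 0.07 on the log2 scale.

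Among 10 measured NF-kappaB subunits and kinases, 3 were higher in the KO-labelled pair and 0 in the wild-type pair. Rela, the main activating subunit, was 2.04-fold higher in the KO-labelled pair and 1.06-fold in the wild-type pair, Relb, a subunit of the alternative pathway, 2.26-fold and 1.45-fold, and the kinase scaffold Ikbkg 2.14-fold and 1.95-fold. Of NF-kappaB feedback and target genes, 9 of 20 were higher and 1 lower in the KO-labelled pair, and 5 of 19 were higher and 0 lower in the wild-type pair, with medians of 0.84 and 0.39 on the log2 scale. Cxcl1, a neutrophil-attracting chemokine, was 4.49-fold higher in the KO-labelled pair and 4.92-fold in the wild-type pair. Nfkbiz, a nuclear regulator of the pathway, was 4.04-fold higher in the KO-labelled pair and 1.78-fold in the wild-type pair. Its log2 signal was 9.87 in KO-labelled IR, 7.85 in KO-labelled sham, 9.46 in wild-type IR and 8.63 in wild-type sham, so the sham arrays lay further apart than the injured ones. Bcl3, another nuclear regulator, was 2.85-fold higher in the KO-labelled pair and 2.35-fold in the wild-type pair. Nfkbia, the inhibitor that NF-kappaB induces against itself, was 2.25-fold higher in the KO-labelled pair and 1.18-fold lower in the wild-type pair. The sham arrays differed here too, with log2 signals of 10.64 in KO-labelled sham and 11.20 in wild-type sham, against 11.81 in KO-labelled IR and 10.96 in wild-type IR. Cxcl10, which interferon also induces, had a log2 ratio of 0.03 in the KO-labelled pair and was 2.75-fold higher in the wild-type pair. Tnfaip3, the ubiquitin-editing brake A20, had log2 ratios of 0.63 and 0.73. The antioxidant enzyme Sod2 was 2.07-fold lower in the KO-labelled pair. Icam1 was 2.25-fold higher in the KO-labelled pair and 2.78-fold in the wild-type pair, and Csf1 2.22-fold and 2.37-fold. Vcam1 was 2.52-fold higher in the KO-labelled pair and 1.07-fold lower in the wild-type pair. Cxcl2 was at least 4.83-fold and at least 1.10-fold higher. Birc3 also stands among the death effectors and Vcam1 among the tubular injury markers, so the lists overlap.

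**Figure D5:**
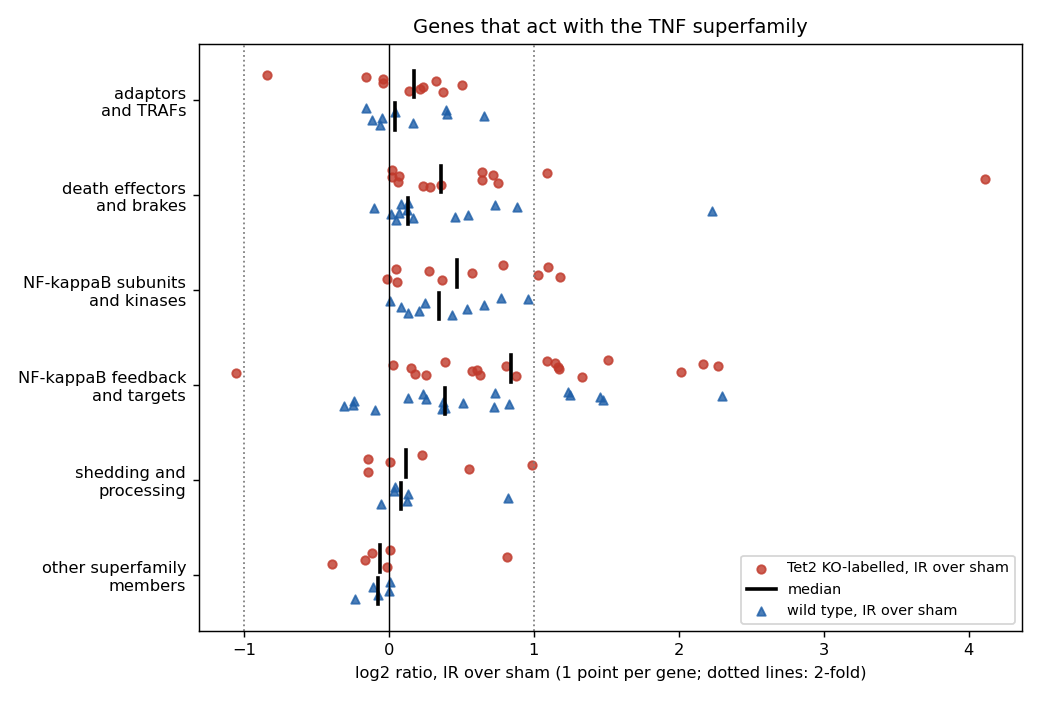
Log2 ratio of injury over sham (horizontal axis) for genes that act with the superfamily, 1 point per gene and a black bar for the median, with the KO-labelled pair above the wild-type pair in each list. NF-kappaB feedback and target genes have medians of 0.84 and 0.39, and Mlkl lies far to the right among the death effectors.

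The shedding list held no gene past 2-fold among 6 in either pair. Adam17, the protease that cuts TNF and its receptors from the cell surface, had log2 ratios of -0.14 in the KO-labelled pair and 0.04 in the wild-type pair. Rhbdf1, one of the rhomboid-like proteins that ADAM17 needs to mature, had 0.99 and 0.82. Of superfamily members whose symbols fall outside the name rule, 0 of 6 measured were called in the KO-labelled pair and 0 of 5 in the wild-type pair. Edar had only bounds in both pairs, and was at least 1.12-fold lower in the KO-labelled pair. Eda2r also had only a bound. This ectodysplasin receptor gene, a known p53 target, reached the floor in KO-labelled IR alone, with a log2 signal of 6.54. Against this stood 4.46 in KO-labelled sham, 5.52 in wild-type IR and 4.28 in wild-type sham. Eda2r was at least 1.76-fold higher in the KO-labelled pair, which does not show that it stayed under 2-fold.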

How the data were processed

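The authors deposited 1 table of log2 signals for 45037 probe sets, with 1 column per array. The log2 unit was inferred from the deposited values, which run from 2.51 to 14.97. MAS5 is named in the submitters' processing notes, and the scaling between arrays is not given in the sources used here. Symbols came from the array annotation, and all 34 members matched the RefSeq gene table of GRCm38.p6. Each gene was read from its probe set with the highest mean signal, with probe sets ending in _x_at used only where there was no other. Signals under the 40th percentile were set to it, a gene was measured if 1 or more compared arrays reached it, and a fold with one side at the floor is a lower bound. Ratios were computed with Python 3.11.15, pandas 2.3.3 and numpy 2.4.6, and the counting was tested on simulated data. Values in all 4 arrays were given for members past 2-fold and for Tnf, Tnfrsf1a, Tnfrsf1b, Fas and Fasl, and other genes of the lists were named mainly where past 2-fold. Promoters came from RefSeq. Alternatives changed the floor, the probe set, the scaling and the control. The members and lists were chosen with earlier results of these data known.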

Additional observations from a re-analysis of the deposited data

How the results depend on the processing

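The counts of members past 2-fold and the members' medians were recomputed under 9 alternatives, and none of the 84 values moved by more than the margins used here, 1.5 times for a count and the SD between probe sets for a median. These margins are wide for small counts and for medians near 0. The count in the KO-labelled pair was 3 in place of 4 with a pseudocount, the median over probe sets, plain _at probe sets or quantile normalization. Between the injured arrays the count was 2 in place of 3 with a pseudocount or with arrays centred on their medians. Among the values of single members, 11 of 707 moved by more than the SD between probe sets. They concern Tnfrsf1b, Tnfrsf21, Tnfrsf25, Tnfrsf14 and, with the median over probe sets in the wild-type pair, Tnfsf10, whose log2 ratio was then -0.05 in place of -0.46. No member past 2-fold turned its direction. Tnfrsf12a and Tnfsf10 stayed past 2-fold under every alternative in each comparison where they passed it, with log2 ratios in the KO-labelled pair from 3.29 to 3.55 for Tnfrsf12a and from -2.37 to -2.11 for Tnfsf10. Between the injured arrays the log2 ratio of Tnfrsf1a ran from 0.97 to 1.03, past 2-fold in 6 of 8 alternatives and short of it with a pseudocount or with arrays centred on their medians; its difference of responses ran from 0.99 to 1.10. In the KO-labelled pair Tnfrsf22 ran from 0.85 to 1.09, past 2-fold in 5 of 7 and short of it with a pseudocount or quantile normalization; with plain _at probe sets or the median over probe sets it was not measured. The median of the members kept no sign in the KO-labelled pair, from -0.12 to 0.01, nor in the wild-type pair, from -0.06 to 0.05. No paired analysis was possible because each group has 1 array.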

Other observations

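Tnfrsf22 and Tnfrsf23, neighbouring decoy receptor genes with no protein-coding gene between them, have 3 probe sets that were below the floor in every array. All 6 of their unfloored log2 ratios of injury over sham were above 0. They were 0.75, 0.25 and 0.52 in the KO-labelled pair and 0.70, 0.25 and 0.34 in the wild-type pair. Tnfrsf10b, the mouse death receptor for TRAIL, was below the floor on both probe sets, with unfloored ratios of 0.01 and -0.04 in the KO-labelled pair and 0.29 and 0.64 in the wild-type pair. These values were picked after they were seen and lie where the signal carries least information.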
